A study of Mus musculus with 6 samples.

Results

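Transcript counts of 8 genes of the secreted matrix and of matrix breakdown were followed in leukocytes of MC38 tumours. The genes were listed by symbol: Spp1, Thbs1, Fn1, Vcan, Mmp12, Mmp14, Mmp19 and Timp2, all 8 present among the 32285 gene identifiers of the count matrices. MC38 is a mouse colon carcinoma line, injected under the skin as unmodified cells, and CD45+ cells (leukocytes) were sorted from the tumours on day 25. The cko group came from mice with a tamoxifen-inducible Ctcf knockout, labelled as knockout in Tregs (n = 3), and the ctr group from control mice, labelled Ctcf WT in Tregs (n = 3). CTCF is a chromatin protein that anchors DNA loops, and Treg cells are the Foxp3-dependent CD4 T cells that restrain immunity. The driver of the knockout, the deleted exons, the tamoxifen schedule of either group and the age of the mice are not given in the sources used here.

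Spp1 encodes osteopontin, a secreted phosphoprotein that binds integrins and CD44 and marks a well-known state of tumour macrophages. Thbs1 encodes thrombospondin-1, which binds CD36 and CD47 and can release active TGF-beta from its latent form, and Fn1 and Vcan encode fibronectin and versican, large components of the matrix itself. Mmp12 (macrophage elastase), Mmp14 (a membrane-anchored collagenase) and Mmp19 encode metalloproteinases that cut matrix, and Timp2 encodes an inhibitor of these enzymes that also helps MMP14 to activate MMP2.

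The 5 members with an entry in the RefSeq promoter table (GRCm38.p6, 250 bases before to 50 after the start) were Spp1, Vcan, Mmp12, Mmp14 and Timp2. The promoters of Spp1 and Timp2 are shown because these 2 members were lower in cko in both macrophages and Treg cells, and that of Mmp12 because it was among the members with the largest rise in macrophages. Capitals mark AACCACA on either strand, the core bound by RUNX factors.

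Spp1, chr5:104434861-104435160, + strand: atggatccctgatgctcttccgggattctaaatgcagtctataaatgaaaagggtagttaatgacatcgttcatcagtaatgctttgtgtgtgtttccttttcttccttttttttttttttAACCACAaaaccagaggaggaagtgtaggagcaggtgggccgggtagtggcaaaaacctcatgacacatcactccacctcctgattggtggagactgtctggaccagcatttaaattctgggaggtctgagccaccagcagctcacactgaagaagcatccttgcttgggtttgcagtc

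Timp2, chr11:118355362-118355661, - strand: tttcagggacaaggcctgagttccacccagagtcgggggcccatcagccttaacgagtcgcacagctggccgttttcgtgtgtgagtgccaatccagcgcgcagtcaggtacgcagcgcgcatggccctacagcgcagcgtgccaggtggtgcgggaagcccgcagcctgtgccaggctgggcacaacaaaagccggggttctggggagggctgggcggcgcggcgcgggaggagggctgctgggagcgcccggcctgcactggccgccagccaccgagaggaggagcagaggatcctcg

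Mmp12, chr9:7344147-7344446, + strand: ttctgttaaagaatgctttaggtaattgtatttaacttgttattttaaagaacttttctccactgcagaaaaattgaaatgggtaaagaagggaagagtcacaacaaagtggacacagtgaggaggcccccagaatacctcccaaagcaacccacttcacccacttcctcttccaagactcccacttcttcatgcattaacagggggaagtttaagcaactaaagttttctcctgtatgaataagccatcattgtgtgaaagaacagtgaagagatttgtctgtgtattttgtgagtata

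The RUNX core occurred once in the Spp1 promoter, beginning 129 bases before the start, and in none of the other 4 entries, against 5.27% of all 32851 promoters of the table. The AP-1 motif TGANTCA, which reads the same on both strands, had no match in any of the 5 windows and occurred in 7.81% of all promoters. The windows also differed in CpG dinucleotides: 3 in Spp1, 0 in Mmp12 and 25 in Timp2, against a median of 7 (quartiles 3 and 20) over the table. The Timp2 window is set on a RefSeq start that lies 329 bases from the start of the gene in the annotation of the same build. The motifs are letters in these windows and no binding was measured.

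The 6 libraries held 45322797 to 55515267 UMIs (unique molecular identifiers, 1 per captured transcript), and 37332 of 41679 barcodes were kept as cells. Cells were gated by marker genes, none of them a member. The gates took 1624 macrophages from cko and 3883 from ctr samples, 2071 and 2060 monocytes, 230 and 587 conventional dendritic cells (cDC), and 800 and 1392 Treg cells. Macrophages made up 8.52 ± 2.67% of kept cells in cko and 21.2 ± 5.83% in ctr (SD, n = 3 each), and their summed macrophage markers (14 of 14 detected in both groups) reached 16540 to 19450 CPM (counts scaled to the total UMIs of the gate) in cko, against 34360 to 40390 CPM in ctr. In Treg cells the summed Treg markers reached 3430 to 6417 CPM in cko and 5924 to 7104 CPM in ctr. Ctcf itself had 60.9, 96.8 and 69.4 CPM in the Treg cells of cko and 80.8, 83.0 and 98.5 CPM in those of ctr, a difference of -0.22 in log2 that was not called (adjusted p = 0.694), and without the deleted exons these counts do not check the labels. The T cells of cko replicates 1 and 3 shared 197 paired TCR clonotypes, against at most 3 in the other 14 pairs of samples, while cell barcodes were shared by 71 in that pair and by 41 to 81 in the others. Whether these 2 samples come from separate mice could not be settled from the labels. The cko group may therefore hold fewer than 3 independent samples, while the SDs and p-values count 3. Where a call changed when the counts of these 2 samples were added together, that value is given.

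Macrophages of cko tumours carried more of the proteases Mmp12 and Mmp19 and of Thbs1 and Vcan, and less Timp2 and Spp1, than macrophages of ctr tumours. Counts were summed per sample and gate and tested across all genes with edgeR's quasi-likelihood test, a difference being called at an adjusted p below 0.05. All 8 members passed the filter on low counts; 4 rose and 2 fell, in a comparison in which 21.6% of 10757 genes were called (12% higher and 9.65% lower in cko). The CPM values of the groups did not overlap for 6 members, as for 42.1% of all genes tested.

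Mmp12 had 161, 142.5 and 139 CPM in the 3 cko samples and 37.5, 27.8 and 33.3 CPM in the 3 ctr samples. Every cko sample lay far above every ctr sample, a log2 difference of 2.27 (SE 0.13, adjusted p = 8.85e-06). Mmp19, a protease also expressed by macrophages, had 115, 89.6 and 112 CPM in cko and 19.1, 14.7 and 19.6 CPM in ctr. The groups were again well apart, with a log2 difference of 2.67 (SE 0.15, adjusted p = 8.85e-06). Mmp14, in contrast, had 201, 148 and 197.5 CPM in cko and 196.5, 215 and 172 CPM in ctr. Its groups overlapped, and the 95% interval of the log2 difference ran from -0.28 to 0.30.

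Timp2, the inhibitor, had 20.3, 16.1 and 26.0 CPM in cko macrophages and 70.2, 47.9 and 68.3 CPM in ctr macrophages. The highest cko sample was below the lowest ctr sample, with a log2 difference of -1.44 (SE 0.20, adjusted p = 0.000983). Spp1 had 162, 222 and 235 CPM in cko and 291, 337.5 and 384 CPM in ctr. Here too the groups did not overlap, and the log2 difference was -0.62 (SE 0.14, adjusted p = 0.0101).

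Thbs1 reached 1691, 1594 and 1723 CPM in cko and 1109, 658 and 641 CPM in ctr. The ctr samples were spread, replicate 1 being the highest, yet all lay below cko; the log2 difference was 1.15 (SE 0.21, adjusted p = 0.00829; 0.0738 without the filter on low counts). Vcan was scarce, with 10.2, 7.55 and 15.2 CPM in cko and 6.08, 5.33 and 4.38 CPM in ctr, and rose by 1.21 in log2 (SE 0.24, adjusted p = 0.00506). Fn1 had 282, 445 and 395 CPM in cko and 318, 334 and 285 CPM in ctr. Its groups overlapped and it was not called (log2 0.35, SE 0.14, adjusted p = 0.0962), though it was called without cko replicate 1 (log2 0.51, adjusted p = 0.0199) and with cko replicates 1 and 3 added together (log2 0.43, adjusted p = 0.0439).

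**Figure D1:**
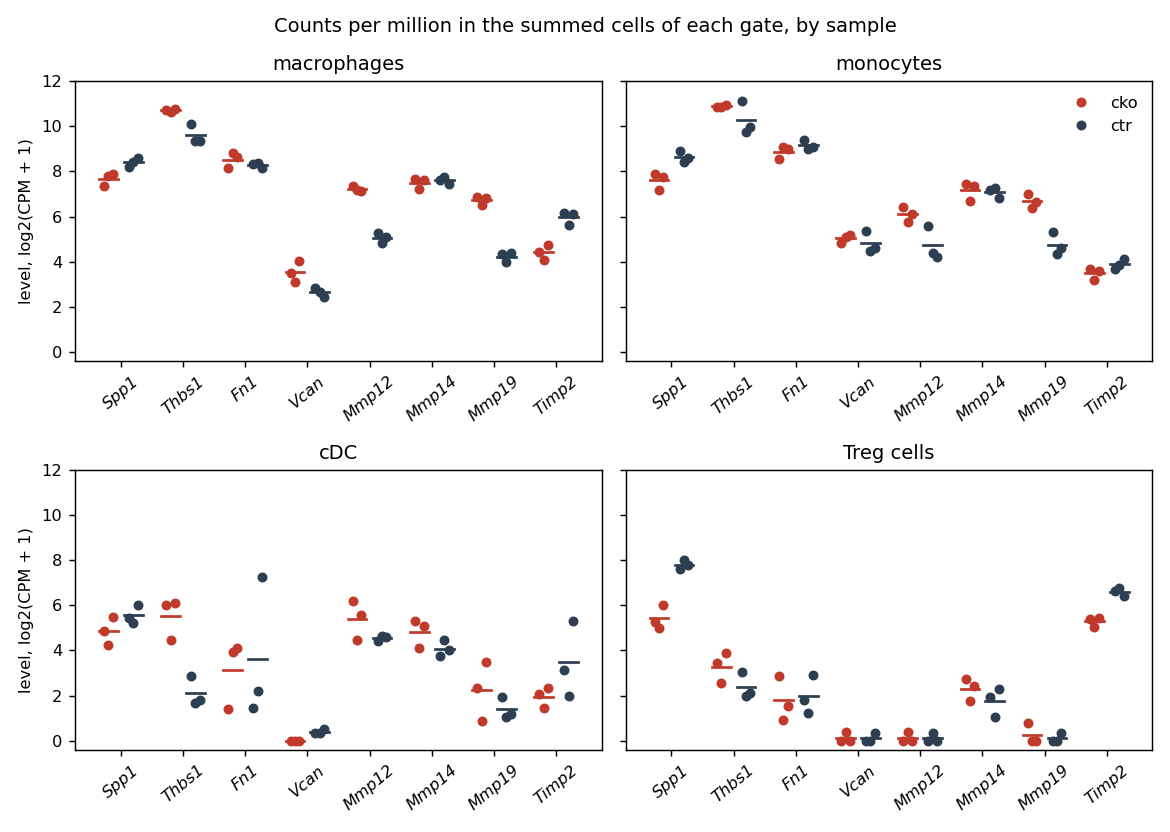
Level of each member as log2(CPM + 1) in the summed cells of 4 gates; points are the 3 cko and 3 ctr samples and short lines their means. In macrophages Mmp12 and Mmp19 lie higher in all 3 cko samples (139 to 161 and 89.6 to 115 CPM) than in the ctr samples (27.8 to 37.5 and 14.7 to 19.6 CPM).

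The macrophage gate did not hold the same mix in both groups. Its cells with at most 2 UMIs of the monocyte marker Ly6c2 made up 24.7 to 28.9% in cko and 25.0 to 48.0% in ctr, and its cells with a UMI of Arg1, the arginase of tumour macrophages, 62.0 to 69.9% in cko and 45.0 to 50.3% in ctr. C1qa, a complement gene of mature macrophages, reached 1538 to 1882 CPM in cko and 3985 to 5009 CPM in ctr. Within the Ly6c2-low cells the log2 differences were 2.59 for Mmp12, 3.77 for Mmp19, -1.14 for Timp2 and -0.92 for Spp1, and within the cells with at least 3 Ly6c2 UMIs they were 2.24, 2.24, -1.36 and -0.76; all 8 were called. Thbs1 was higher in both (log2 1.79 and 0.82) but not called in either (adjusted p = 0.0922 and 0.0690). In macrophages without an Arg1 UMI the Spp1 difference was -0.34 (adjusted p = 0.301), against -1.02 (adjusted p = 0.00354) in those with one, and Vcan was not called in those with one (adjusted p = 0.140). Thbs1 was not called in macrophages without an Arg1 UMI (log2 1.65, adjusted p = 0.0997) and was in those with one (log2 0.75, adjusted p = 0.00126). The difference between these parts of the gate was not tested.

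Monocytes of cko tumours had more Mmp19 and less Spp1. Of the 8 members tested 1 rose and 1 fell, where 5.34% of 10086 genes were called (3.09% higher, 2.25% lower). Mmp19 had 129, 81.5 and 99.8 CPM in cko and 38.9, 19.2 and 23.3 CPM in ctr, a log2 difference of 2.03 (SE 0.30, adjusted p = 0.0141) with no overlap. Spp1 had 238, 146 and 216.5 CPM in cko and 478, 345 and 389 CPM in ctr. All cko values were below all ctr values, with a log2 difference of -0.97 (SE 0.21, adjusted p = 0.0363). Without the filter on low counts neither was called (adjusted p = 0.0815 for Mmp19 and 0.153 for Spp1). The 6 neutrophil markers (6 detected in cko, 5 in ctr) summed to 121 to 333 CPM in cko monocytes and 54.0 to 67.7 CPM in ctr monocytes, and their part in these results was not tested.

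Mmp12 had 85.8, 52.5 and 67.7 CPM in cko monocytes and 47.0, 19.8 and 17.4 CPM in ctr monocytes. The groups did not overlap, as for 25.6% of all genes tested, but the log2 difference of 1.42 (SE 0.45) was not called (adjusted p = 0.160). Ctr replicate 1 stood apart from the other 2 ctr samples in this gate, with the highest Thbs1 of all 6 samples (2215 CPM, against 867 and 1003 CPM). Without it Mmp12 (log2 1.94), Thbs1 (1.05) and Vcan (0.57) were called and Spp1 was not (adjusted p = 0.0518). Spp1 was also lost without ctr replicate 3 or cko replicate 3 and with cko replicates 1 and 3 added together (adjusted p = 0.0694), and Mmp19 without ctr replicate 3 (adjusted p = 0.0741) or cko replicate 3 (adjusted p = 0.0526). Fn1 and Mmp14 overlapped between the groups, with log2 differences of -0.26 and 0.14. Timp2 had 11.6, 8.23 and 10.9 CPM in cko and 11.98, 13.6 and 16.6 CPM in ctr, a narrow gap that was not called (log2 -0.40, adjusted p = 0.266). No member's difference was called as unlike between monocytes and macrophages in the joint fit, where 0.0648% of genes were. This does not show that the differences were alike. On simulated data such a test, for Treg cells against macrophages, called only 9.89% of genes changed by 1 in log2.

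In cDC, the antigen-presenting cells, Thbs1 was higher in cko, and it was the 1 member called of the 5 that passed the filter (Spp1, Thbs1, Fn1, Mmp12 and Mmp14), against 1.84% of 8479 genes (1.27% higher in cko). Thbs1 had 63.4, 21.2 and 67.5 CPM in cko and 6.33, 2.19 and 2.49 CPM in ctr, from 78, 25 and 67 UMIs against 22, 8 and 6. The lowest cko sample exceeded the highest ctr sample, as in 1 direction or the other for 21.7% of all genes, with a log2 difference of 3.78 (SE 0.58, adjusted p = 0.0258). In cko 11, 7 and 10 cells carried it, and single cells held up to 27 UMIs. Without the cell holding most Thbs1 in each sample, 42.0, 14.7 and 44.1 CPM remained in cko and 2.02, 1.38 and 2.08 CPM in ctr. Dendritic markers of the gate differed between the groups. Ccr7 had 1669, 896 and 1870 CPM in cko and 514, 401 and 413 CPM in ctr. Itgae had 49.6, 57.8 and 53.4 CPM in cko and 143, 102 and 131 CPM in ctr, while Flt3 and Zbtb46 overlapped. The 7 B and plasma cell markers, all detected in both groups, summed to 80.6 to 1043 CPM in cko cDC and 1.64 to 42.7 CPM in ctr cDC, without overlap. The part of a different mix of dendritic cells, or of B and plasma cells or their RNA, in the cDC results was not tested.

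Some markers of other myeloid cells were also higher in cko cDC, as Thbs1 was, and others were not. In cDC the 14 macrophage markers (12 detected in cko, 13 in ctr) summed to 664 to 951 CPM in cko and 434 to 697 CPM in ctr, with overlap, and the 11 monocyte markers to 1634 to 2092 CPM in cko and 1331 to 1559 CPM in ctr, without overlap. C1qa had 14.6, 9.35 and 47.3 CPM in cko and 12.1, 65.7 and 44.8 CPM in ctr, and Lyz2, a myeloid marker, 94.3, 402 and 455 CPM in cko and 114, 148 and 135 CPM in ctr, its lowest value being in cko replicate 1. Thbs1 in cDC was 1.23 to 3.66% of its level in macrophages and monocytes in cko and 0.301 to 0.456% in ctr, and Lyz2 1.32 to 6.01% in cko and 1.37 to 1.63% in ctr. The macrophage marker Adgre1 was at 2.52 to 6.77% in cko and 0.766 to 1.89% in ctr, and Cd68 at 57.4 to 66.9% and 33.4 to 50.3%, without overlap. Csf1r (9.2 to 16.7% in cko, 4.79 to 9.43% in ctr) and Apoe (0.331 to 4.5%, 0.124 to 0.333%) overlapped. Ly6c2 had 402, 435 and 621 CPM in cko cDC and 105, 221 and 240.5 CPM in ctr cDC. The part of other myeloid cells or their RNA in the Thbs1 result was not tested. In cDC with at most 2 core macrophage markers the log2 difference of Thbs1 was 3.73 (adjusted p = 0.00922). The call was lost without any 1 sample other than cko replicate 2 (adjusted p from 0.0513 to 0.115) and with cko replicates 1 and 3 added together (adjusted p = 0.0840).

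Mmp12 had 71.5, 21.2 and 46.3 CPM in cko cDC and 20.4, 23.8 and 22.8 CPM in ctr cDC, and Mmp14 38.2, 16.1 and 33.2 CPM in cko and 12.4, 21.1 and 15.3 CPM in ctr. For both, cko replicate 2 lay within the ctr values and neither was called (adjusted p = 0.231 and 0.255), while without that sample both were (log2 1.51 and 1.23). Spp1 had 28.5, 17.8 and 44.3 CPM in cko and 42.3, 36.4 and 63.0 CPM in ctr, with overlap. Fn1 had 1.63, 14.4 and 16.1 CPM in cko and 1.73, 3.56 and 151 CPM in ctr. The high ctr value came from 1 cell of ctr replicate 3 with 354 of its 365 Fn1 UMIs, and the same sample held 87 of its 92 Timp2 UMIs in 1 cell. The stromal genes Col3a1 and Sparc had 39.4 and 48.1 CPM in cDC of that sample, against at most 0.288 CPM in any other. Col1a1, Col1a2 and Lum had no UMI there. Whether a stromal cell lay in the gate was not tested. Vcan, Mmp19 and Timp2 did not pass the filter in cDC, at no more than 0.415, 10.1 and 38.2 CPM.

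Treg cells of cko tumours had less Spp1 and less Timp2. Of the 4 members that passed the filter (Spp1, Thbs1, Mmp14 and Timp2) 2 fell, where 1.52% of 10043 genes were called (0.826% higher, 0.697% lower). Spp1 had 37.8, 30.4 and 63.1 CPM in cko and 196.5, 254 and 220 CPM in ctr. The groups were far apart, with a log2 difference of -2.39 (SE 0.25, adjusted p = 0.0109). Timp2 had 41.3, 31.7 and 42.2 CPM in cko and 97.8, 109 and 84.3 CPM in ctr. It too fell without overlap, by 1.38 in log2 (SE 0.17, adjusted p = 0.0134); 20.1% of all genes tested did not overlap.

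The counts behind these sums were spread differently over cells. Spp1 was found in 6.48, 4.27 and 12.5% of Treg cells in cko and 16.6, 12.6 and 14.7% in ctr, and cells with at least 10 Spp1 UMIs numbered 1, 2 and 4 in cko and 12, 16 and 23 in ctr. A single cell held 492 of the 929 Spp1 UMIs of ctr replicate 2. Without the top cell of each sample Spp1 stood at 17.7, 11.4 and 47.8 CPM in cko and 162, 120 and 183 CPM in ctr. Timp2 was found in 18.1, 19.5 and 20.3% of Treg cells in cko and 41.3, 48.8 and 37.6% in ctr, with at most 8 UMIs in any cell.

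The macrophage markers also were lower in the Treg cells of cko, with 12 of 14 detected and 32.9 to 64.5 CPM summed in cko, against 14 of 14 and 105 to 186 CPM in ctr. Spp1 in Treg cells stood at 16.8 to 28% of its level in macrophages and monocytes in cko and at 57.1 to 74.6% in ctr, and Timp2 at 232 to 267% in cko and 161 to 297% in ctr. The macrophage gene Lyz2 was at 0.134 to 0.25% in cko and 0.345 to 0.563% in ctr, lower in cko without overlap. C1qa (0.24 to 0.721% in cko, 0.314 to 0.606% in ctr) and Apoe (0.298 to 0.519% in cko, 0.292 to 0.497% in ctr) overlapped. Thbs1 stood at 0.281 to 0.737% in cko and 0.414 to 0.522% in ctr, about as low as those markers. Its Treg level was 4.87 to 13.6 CPM in cko and 3.00 to 7.23 CPM in ctr, and whether this is background RNA was not tested.

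Among Treg cells with a Foxp3 UMI the log2 differences were -3.42 for Spp1 (adjusted p = 0.0415) and -1.59 for Timp2 (adjusted p = 0.0187). Among Treg cells without a UMI of 8 macrophage genes they were -2.66 for Spp1, no longer called (adjusted p = 0.134), and -1.36 for Timp2 (adjusted p = 0.0143). Without ctr replicate 2 or ctr replicate 3 neither gene was called (adjusted p from 0.0534 to 0.0704). Fewer cells of a kind within a gate and less RNA in each cannot be told apart in these sums.

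**Figure D2:**
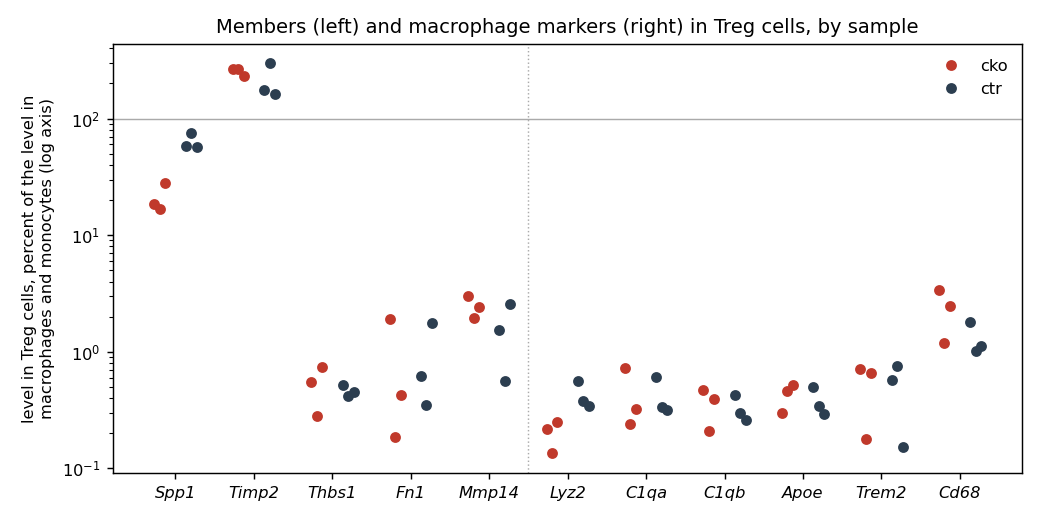
Level in Treg cells as a percent of the level in macrophages and monocytes of the same sample, on a log axis, for 5 members and 6 macrophage markers; points are samples, values of 0 are not drawn. Spp1 (16.8 to 28% in cko, 57.1 to 74.6% in ctr) and Timp2 (over 100% in every sample) lie well above Lyz2, C1qa, C1qb, Apoe and Trem2. Cd68, the other marker, is at 1.18 to 3.38% in cko and 1.02 to 1.78% in ctr.

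Whether the cko difference itself varied between gates was tested in a joint fit of the 4 gates with the sample as a block. The fall of Spp1 was larger in Treg cells than in macrophages (difference of log2 differences -1.84, SE 0.36, adjusted p = 0.00497), than in monocytes (-1.47, adjusted p = 0.0379) and than in cDC (-1.84, adjusted p = 0.0415). Of all genes, 9.75, 3.29 and 4.02% were called in these contrasts. The contrast with macrophages was called without each sample in turn. That with monocytes was lost without cko replicate 1 or 2 or ctr replicate 2 or 3, and that with cDC without any sample but ctr replicate 3; both were lost with cko replicates 1 and 3 added together (adjusted p = 0.0708 and 0.0532). The difference of Timp2 was not called as unlike between Treg cells and macrophages (0.05, interval -1.16 to 1.26). In log2, the rise of Thbs1 was larger in cDC than in macrophages (2.69, SE 0.46, adjusted p = 0.00736, where 2.01% of genes were called) and than in monocytes (3.25, adjusted p = 0.0042, where 0.722% were). The first was lost without cko replicate 1 (adjusted p = 0.0707) or ctr replicate 3 (adjusted p = 0.0631) and with stricter gates (1.67, adjusted p = 0.0594), and the second without cko replicate 1 (adjusted p = 0.0594). The cDC ratio is taken over a very low ctr level, 0.301 to 0.456% of that in macrophages and monocytes, near the percentage in ctr Treg cells. In CPM the rise was smaller in cDC (means of 50.7 in cko and 3.67 in ctr) than in macrophages (1669 in cko and 802.5 in ctr).

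**Figure D3:**
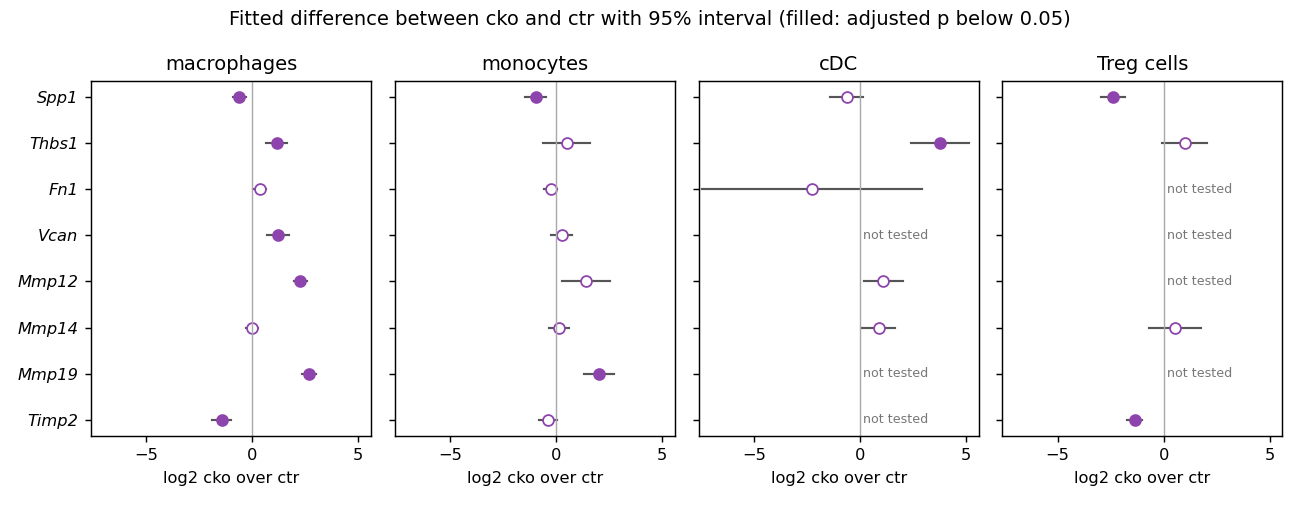
Fitted log2 difference of cko over ctr with its 95% interval for each member in 4 gates; filled points have an adjusted p below 0.05. Spp1 lies below 0 in every gate and is filled in macrophages, monocytes and Treg cells, with -2.39 in Treg cells and -0.62 in macrophages.

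The share of cells with a UMI was compared after each cell had been thinned to 3352 UMIs, which left out 492 of 4725 cko and 772 of 7922 ctr cells. Thinned shares did not overlap between the groups for 11 of 32 pairs of member and gate: 6 of 8 members in macrophages, 2 in monocytes, 2 in cDC and 1 in Treg cells. Of all genes tested in these gates, 33.5, 21.4, 16 and 19.2% did not overlap by the same measure. In macrophages Mmp12 was found in 13.7 ± 1.09% of cells in cko and 3.48 ± 0.279% in ctr, and Mmp19 in 18.6 ± 2.72% in cko and 4.497 ± 1.4% in ctr (SD, n = 3 each). Thbs1 was found in 76.9 ± 1.04% of macrophages in cko and 49.1 ± 10.3% in ctr, and Timp2 in 5.41 ± 0.645% in cko and 14.9 ± 2.43% in ctr. With 3 samples against 3 the exact two-sided permutation p cannot go below 0.1, and adjusted over the 32 pairs none was below 0.291. In Treg cells Spp1 shares overlapped after thinning (5.94 ± 2.49% in cko, 10.8 ± 2.33% in ctr), where their unthinned shares and sums did not.

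Across gates the members were not distributed alike. Averaged over genotypes, Spp1, Thbs1, Fn1, Vcan, Mmp14 and Mmp19 were each higher in macrophages and in monocytes than in cDC and in Treg cells. All of these differences were called. For Spp1 the log2 difference from Treg cells was 1.87 in macrophages and 1.96 in monocytes. Of all genes, 55.9 and 56.6% were called between macrophages or monocytes and cDC, and 75.3% between either and Treg cells. Between macrophages and monocytes, where 14% were called, Vcan was lower in macrophages (log2 -1.91, SE 0.13), and Timp2 (1.58, SE 0.31), Mmp12 (0.75, SE 0.17) and Mmp14 (0.43, SE 0.09) were higher. The differences of Spp1 (-0.09, interval -0.44 to 0.26), Fn1 (-0.59), Thbs1 (-0.41) and Mmp19 (-0.24) between them were not called. With stricter gates Fn1 (log2 -0.65, adjusted p = 0.00841), Thbs1 (-0.46, adjusted p = 0.0115) and Mmp19 (-0.31, adjusted p = 0.0315) were, and Thbs1 also without cko replicate 2 (adjusted p = 7.61e-05). Mmp12 was the member with the most cDC signal relative to macrophages, 1.24 lower in log2 in cDC, and its cDC and monocyte levels did not differ past the threshold (adjusted p = 0.0671; 0.00897 with stricter gates). Without ctr replicate 2 or 3 the Mmp12 difference between macrophages and monocytes was lost (adjusted p = 0.0639 and 0.0760), as was that of Timp2 without cko replicate 3 (adjusted p = 0.0570).

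Timp2 stood apart from this order, and Spp1, which followed it, was also found in lymphocytes of other gates. Timp2 in Treg cells was above its level in monocytes by 1.92 in log2 (SE 0.32) and above that in cDC by 2.92 (SE 0.49, where 64.3% of genes were called), and did not differ past the threshold from macrophages (adjusted p = 0.277), though it was above them with stricter gates (log2 -0.36 for macrophages over Treg cells, adjusted p = 0.00801). Spp1 was highest in NK cells, cytotoxic lymphocytes, with 1024, 895 and 521 CPM in cko and 646.5, 521 and 681 CPM in ctr. CD8 T cells had 130, 252.5 and 101 CPM of Spp1 in cko and 147, 434 and 183.5 CPM in ctr. The groups overlapped in both. Conventional CD4 T cells had 41.6, 10.8 and 14.8 CPM of Spp1 in cko and 228, 80.6 and 178 CPM in ctr, and 55.4, 55.8 and 57.4 CPM of Timp2 in cko and 84.5, 134 and 78.9 CPM in ctr. Their groups did not overlap for either gene, as for 16.8% of the genes tested in Treg cells when read in this gate. No fit was made here. The gate took Cd4-positive T cells without a Foxp3 UMI and without both Il2ra and Ikzf2, so Treg cells with undetected Foxp3 can fall in it. Its summed Treg markers (7 of 8 detected in both groups) reached 2021 to 3245 CPM in cko and 3504 to 4547 CPM in ctr, without overlap. The part of such Treg cells in these values was not tested. Of 222 B cells of cko replicate 2, 0.901% had an Spp1 UMI at a median of 11560 UMIs. In cko NK cells it was 35.3 to 43.3% at medians of 4342.5 to 6500 UMIs. The other samples held only 5 to 10 B cells each, too few to give such a share, so ctr has no such value. The part of free RNA in the Spp1 counts was not tested.

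**Figure D4:**
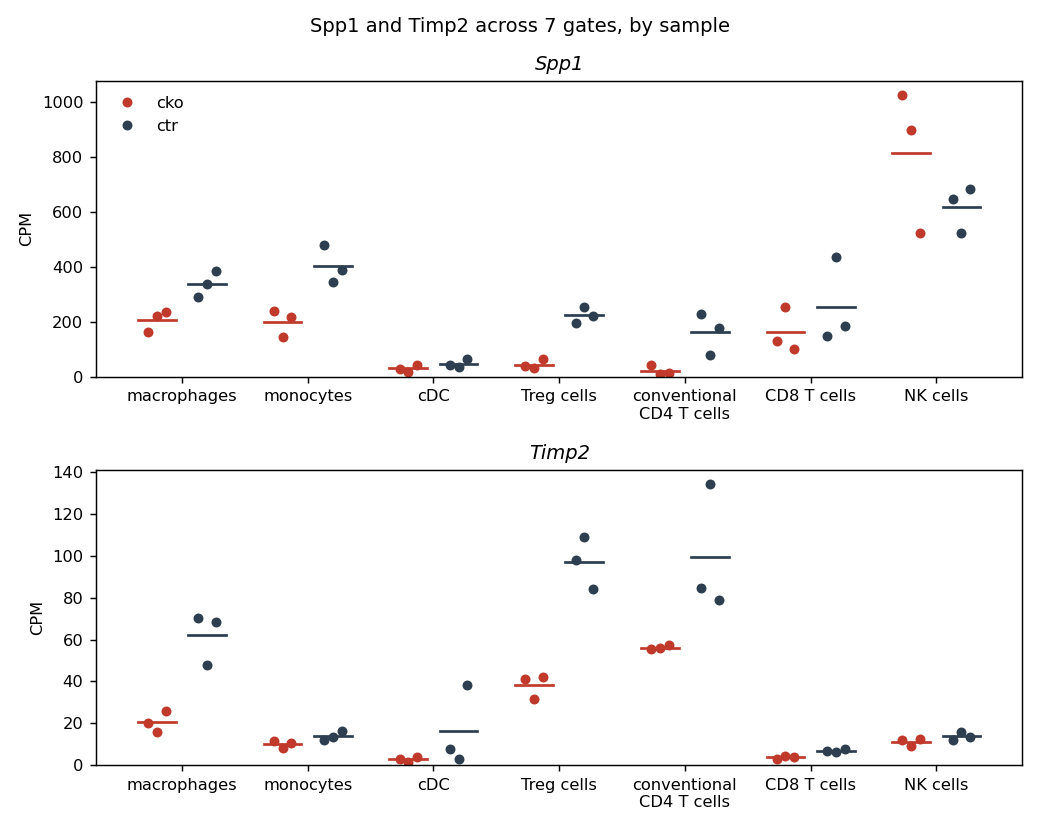
CPM of Spp1 (top) and Timp2 (bottom) in the summed cells of 7 gates; points are the 3 cko and 3 ctr samples and short lines their means. Spp1 is highest in NK cells (521 to 1024 CPM in cko, 521 to 681 CPM in ctr). In the gates of Treg and conventional CD4 T cells, both genes are lower in all 3 cko samples than in all ctr samples.

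The genes whose levels ran most alike with each member over 42 sums (7 gates of 6 samples) were listed by Pearson's r of log2(CPM + 1), as a description: the sums share cell types and libraries. For Thbs1 they were F10 (r = 0.984), Msr1 and Mgst1, for Fn1 Sirpb1c (0.965), Ctsl and Lyz2, and for Vcan Hp (0.959), Chil3 and Mgst1. For Mmp12 they were Clec4n (0.985), Creb5 and Bst1, for Mmp14 Ctss (0.982), Atp6v0c and Fth1, and for Mmp19 Nrg1 (0.959), F10 and Inhba. Spp1 had no gene above 0.782 (Slc35b2 and Ppp1r3b) and Timp2 none above 0.822 (Dnajc4).

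Macrophages that carried Arg1 differed from the others in the same sample in their Fn1 and Spp1. Over the 6 samples, 2 members were called higher and 1 lower in cells with an Arg1 UMI, where 13.3% of 9758 genes were called (7.34% higher). Fn1 in cells with and without Arg1 reached 407 and 57.0, 623 and 155, and 512 and 113 CPM in the cko samples, and 481 and 123, 575.5 and 126.5, and 495 and 68.1 CPM in the ctr samples. It was higher with Arg1 in 6 of 6 samples, by 2.37 in log2 (SE 0.15, adjusted p = 4.25e-05). Spp1 in cells with and without Arg1 reached 194 and 105, 282.5 and 125, and 305 and 66.3 CPM in cko, and 428 and 128, 581 and 129, and 617.5 and 143 CPM in ctr, higher with Arg1 in 6 of 6 samples (log2 1.82, SE 0.22, adjusted p = 0.00388).

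Timp2 was lower with Arg1 in 6 of 6 samples (log2 -0.30, SE 0.09, adjusted p = 0.0301), a call that was lost without cko replicate 1, cko replicate 3, ctr replicate 2 or ctr replicate 3 (adjusted p from 0.0601 to 0.141) and with cko replicates 1 and 3 added together (adjusted p = 0.0526). Thbs1 (log2 1.09, adjusted p = 0.0717) and Mmp19 (1.07, adjusted p = 0.106) were higher in 6 of 6 samples and not called. Mmp14 had 190 ± 24.5 CPM with Arg1 and 184 ± 26.5 CPM without (SD, n = 6), and its interval ran from -0.04 to 0.20. Median UMI counts per sample were 6992.5 to 10636.5 in cells with Arg1 and 7370.5 to 10287 in cells without.

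**Figure D5:**
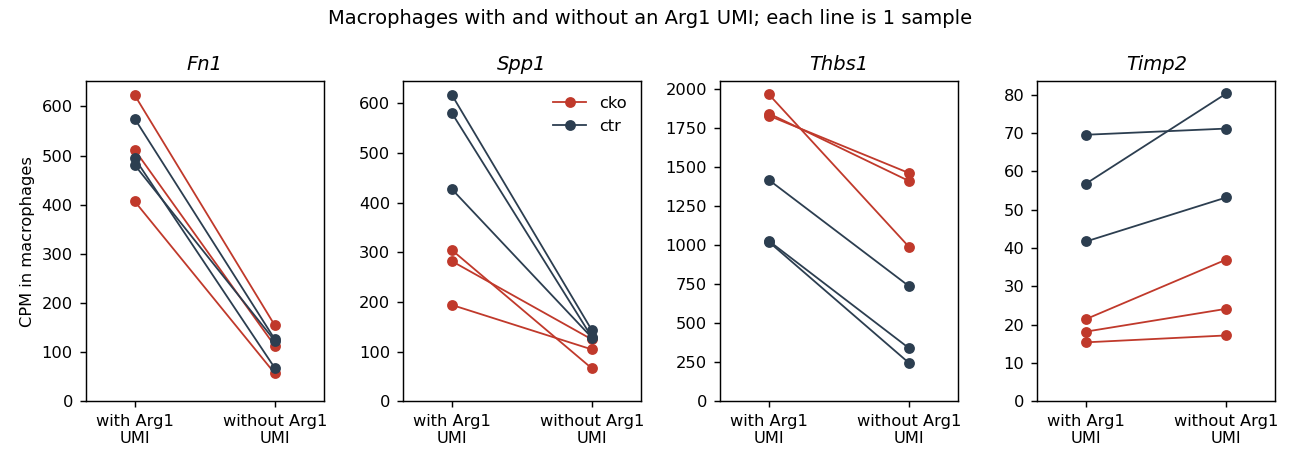
CPM of 4 members in macrophages with (left) and without (right) an Arg1 UMI; each line is 1 sample, cko or ctr. Fn1 and Spp1 are higher with Arg1 in all 6 samples, and Timp2 is lower in all 6.

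Genes that act with the members were described by lists, set beside the share called among all genes (21.6% in macrophages). Of 16 receptors of the secreted members 15 were tested in macrophages; 5 rose and 2 fell, with a median log2 difference of 0.40 against -0.02 over all genes. Sdc1, syndecan-1, a heparan sulfate co-receptor, averaged 20.7 ± 5.47 CPM in cko and 3.15 ± 1.42 CPM in ctr (log2 2.85, adjusted p = 0.00139), and Cd36, the scavenger receptor that binds thrombospondin-1, 7.69 ± 3.09 CPM in cko and 2.90 ± 0.432 CPM in ctr (log2 1.43). Itga9, an integrin chain that binds osteopontin, averaged 5.28 ± 1.29 CPM in cko and 24.6 ± 8.61 CPM in ctr (log2 -2.07), and Itgb5, a partner of the alpha v integrin, 60.3 ± 21.4 CPM in cko and 153 ± 8.06 CPM in ctr (log2 -1.24).

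Of 23 other metalloproteinases and ADAM proteases 10 were tested in macrophages; 4 rose and 1 fell (median 0.18). Adam8, a membrane protease of myeloid cells, averaged 177 ± 32.3 CPM in cko and 48.9 ± 19.4 CPM in ctr (log2 1.97, adjusted p = 0.00533), Mmp13, a collagenase, 15.3 ± 5.02 CPM in cko and 5.32 ± 1.4 CPM in ctr (log2 1.63), and Mmp25, a membrane-anchored protease, 33.2 ± 5.55 CPM in cko and 13.04 ± 2.43 CPM in ctr (log2 1.43). Mmp8, the neutrophil collagenase, averaged 7.13 ± 2.66 CPM in cko and 3.21 ± 0.416 CPM in ctr (log2 1.28), while the summed neutrophil markers ran from 52.6 to 99.8 CPM in cko and from 48.2 to 97.7 CPM in ctr. Of 13 protease inhibitors 6 were tested and 2 rose. Timp1, a relative of Timp2 that went the other way, averaged 32.2 ± 11.7 CPM in cko and 8.38 ± 2.24 CPM in ctr (log2 2.08, adjusted p = 0.00187), and Cstb, which blocks cathepsins, 1058 ± 22.9 CPM in cko and 639 ± 6.5 CPM in ctr (log2 0.82).

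Cathepsins and genes of plasminogen activation moved mainly down in macrophages: 2 rose and 6 fell of 13 tested (median -0.42). Ctsb, a lysosomal cathepsin, averaged 763 ± 153 CPM in cko and 1646 ± 208 CPM in ctr (log2 -1.02), Lgmn, a lysosomal endopeptidase, 480 ± 146 CPM in cko and 1207 ± 135 CPM in ctr (log2 -1.23), and Ctse 3.15 ± 1.33 CPM in cko and 7.80 ± 1.58 CPM in ctr (log2 -1.29). Plaur, the urokinase receptor, rose to 830 ± 56.3 CPM in cko, against 469 ± 136 CPM in ctr (log2 0.92, adjusted p = 0.00953).

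Of 22 other matrix and matricellular genes 10 were tested in macrophages; 5 rose and 1 fell (median 0.37). Gpnmb, a glycoprotein of lipid-laden macrophages, averaged 2.84 ± 2.09 CPM in cko and 21.6 ± 6.04 CPM in ctr (log2 -2.64, adjusted p = 0.00229). Lgals3, galectin-3, averaged 2446 ± 222 CPM in cko and 1346 ± 27.6 CPM in ctr (log2 0.96), Emilin2, an elastin-associated protein, 187 ± 20.04 CPM in cko and 100.4 ± 5.85 CPM in ctr (log2 1.00), and Col4a1, a basement membrane collagen chain, 3.50 ± 0.799 CPM in cko and 2.01 ± 0.23 CPM in ctr (log2 0.92). Of 18 genes of TGF-beta activation and signal 14 were tested; 3 rose and 2 fell (median 0.07). Both kinase receptors fell, Tgfbr2 to 29.2 ± 3.82 CPM in cko against 71.3 ± 11.5 CPM in ctr (log2 -1.18) and Tgfbr1 to 35.2 ± 7.49 CPM in cko against 61.5 ± 2.53 CPM in ctr (log2 -0.72). Smad4, the common signal transducer, rose by 0.58 and Ski, a repressor of it, by 0.42 in log2.

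In monocytes, of 14, 10, 7, 12, 9 and 13 genes tested in these lists, in the order given above, 1, 2, 1, 1, 1 and 1 rose and 1, 0, 0, 4, 0 and 1 fell, where 5.34% of all genes were called. Itgb5 fell to 49.0 ± 10.7 CPM in cko against 107 ± 12.3 CPM in ctr, Lgmn to 260 ± 74.7 CPM in cko against 565 ± 36.4 CPM in ctr and Tgfbr2 to 20.3 ± 5.22 CPM in cko against 38.8 ± 6.46 CPM in ctr, while Cd44, the hyaluronan and osteopontin receptor, rose to 398.5 ± 65.4 CPM in cko against 270.2 ± 37.0 CPM in ctr. Mmp9, a gelatinase of neutrophils and monocytes, had 6.08, 3.12 and 2.50 CPM in cko and 0, 0 and 0.191 CPM in ctr and was called (adjusted p = 0.00341). Mmp9 is 1 of the neutrophil markers whose sum is given above for this gate.

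In cDC, Plaur (296 ± 51.4 CPM in cko, 47.5 ± 4.66 CPM in ctr, log2 2.68, adjusted p = 0.000488), Sdc4, a syndecan (111 ± 26 CPM in cko, 41.0 ± 3.84 CPM in ctr), Emilin2, Lgals3 and Cstb rose and no listed gene fell, of 49 tested and with 1.84% of all genes called. In Treg cells 1 listed gene rose and 2 fell of 54 tested, where 1.52% of all genes were called. Itgb8, the integrin chain by which Treg cells release active TGF-beta, had 15.4, 15.5 and 17.5 CPM in cko and 32.1, 49.97 and 61.3 CPM in ctr (log2 -1.59, SE 0.24, adjusted p = 0.0211). Cst7, cystatin F, averaged 148 ± 17.9 CPM in cko and 263 ± 15.4 CPM in ctr (log2 -0.86), and Mmp25 13.3 ± 9.36 CPM in cko and 1.37 ± 0.722 CPM in ctr (log2 3.32), beside neutrophil markers of 22.8 to 85.5 CPM in cko and 6.92 to 28.7 CPM in ctr.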

How the data were processed

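CD45+ cells of MC38 tumours were profiled with a droplet 5′ kit, in 3 biological replicates a group per the labels. The authors deposited whole-number UMI counts for each gene and cell barcode, from Cell Ranger 7.0.0 and GRCm38 (mm10), per the submitters' processing notes. No source used here tells whether doublets or free RNA had been removed. Whether a replicate is 1 mouse or several is not stated, so the p-values cover the spread among samples and no more. They take all samples as independent, which the shared clonotypes of cko replicates 1 and 3 leave in doubt.

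Barcodes needed 300 genes and 500 UMIs, with mitochondrial counts of 10% or less. Scrublet's own threshold marked 168 barcodes (0.403%), which is too low to have worked, so the top-scoring 2092 cells were taken out instead, the number in each sample growing with its barcodes. Gates used UMIs of marker genes. Monocytes and macrophages had at least 3 of 6 core myeloid markers (Csf1r and Lyz2 among them; 1 gene of the gates is not reported here) and at most 1 of 7 T cell markers; macrophages had at least 5 C1q UMIs, and monocytes at most 2 with at least 3 of Ly6c2. Of 11126 such cells 302 had 3 or 4 C1q UMIs, and 1186 with at most 2 C1q and 2 Ly6c2 UMIs stayed ungated. cDC had at most 3 core markers, at most 1 T cell marker and at least 3 of 11 dendritic markers. Treg cells had at least 3 T cell markers, at most 2 core markers, no CD8 UMI, and Foxp3 or both Il2ra and Ikzf2. Thresholds were set after the markers had been seen; members and gene lists were chosen with earlier results of these data known, and the promoter motifs and the splits by Ly6c2, Arg1 and core markers after the data were seen.

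Counts were summed per sample and gate. edgeR 4.0.16 fitted them (TMM, filterByExpr, robust quasi-likelihood, Benjamini-Hochberg over all genes, threshold 0.05); DESeq2 1.42.0 was an alternative. On simulated data for the macrophage comparison (10725 genes), 97.8% of genes changed by 2 and 41.1% of those changed by 1 in log2 were called. For the difference of effects between Treg cells and macrophages these shares were 87.2% and 9.89%. Shares were thinned to 3352 UMIs, the 10% quantile of gated cells, and compared by exact permutation. Named genes were the members, up to 4 called genes per list and gate by size of change, and the 3 most similar genes per member among those with a mean of at least 10 CPM.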

Additional observations from a re-analysis of the deposited data

Results flagged for a closer look

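The cko difference of Spp1 was unlike between gates by a test of the difference itself, in the joint fit with the sample as a block. It was 1.84 lower in log2 in Treg cells than in macrophages (-1.84, adjusted p = 0.00497), and this call held without each of the 6 samples in turn (adjusted p from 0.00809 to 0.0328). Against monocytes (-1.47, adjusted p = 0.0379) and cDC (-1.84, adjusted p = 0.0415) it was lost without any of 4 and any of 5 of the samples. The cko difference of Thbs1 was larger in cDC than in macrophages (2.69, adjusted p = 0.00736) and in monocytes (3.25, adjusted p = 0.0042), and was smaller in Treg cells than in cDC (-2.88, adjusted p = 0.0231). In Treg cells Thbs1 was very low (0.281 to 0.737% of the level in macrophages and monocytes in cko, 0.414 to 0.522% in ctr). Whether these counts are background RNA was not tested, so the last of these contrasts is not read as a difference of Treg cells. Leaving out 1 sample lost these calls in 2, 1 and 4 of 6 cases. The log2 values of Thbs1 in cDC rest on 64 to 214 cells and 6 to 78 UMIs per sample. Its level in ctr cDC was only 0.301 to 0.456% of that in macrophages and monocytes, near the percentage in ctr Treg cells.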

How the results depend on the processing

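The number of members called in macrophages was 6 and lay between 5 and 7 under the other settings tried, and between 4 and 5 in the parts of the gate split by Ly6c2 or Arg1, a choice made after seeing the data. Without a filter on low counts no member was called by edgeR in monocytes or in cDC (5 and 2 members had an unadjusted p below 0.05), against 2 and 1 in the main fits. With cko replicates 1 and 3 added together 1 member was called in monocytes and 0 in cDC (2 with an unadjusted p below 0.05). The DESeq2 Wald test called 2 and 1. In Treg cells without macrophage UMIs 1 of the 2 members tested was called. With stricter gates 7 members differed between macrophages and monocytes, against 4. Leaving out each sample in turn gave 6 to 7 called members in macrophages, 0 to 4 in monocytes, 0 to 3 in cDC, 0 to 2 in Treg cells, 3 to 5 between macrophages and monocytes and 2 to 3 in the Arg1 contrast. Pairs of shares without overlap then numbered 12 to 17, against 11, but this count cannot fall when a sample is left out, so it is no check. The single difference between Treg cells and macrophages, that of Spp1, was called in all 6.

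Values that changed sign were not called in either setting. Mmp14 in macrophages (0.01) was -0.0146 without the filter, -0.0594 with cko replicates 1 and 3 added together, and -0.0207, -0.0134 and -0.0742 in Ly6c2-low, Ly6c2-high and Arg1-negative cells; it lay between -0.0864 and 0.14 with 1 sample left out, and Mmp14 in monocytes between -0.0381 and 0.33. Fn1 in cDC was 1.98 without ctr replicate 3 and down to -2.84 without others. Spp1 between macrophages and monocytes lay between -0.236 and 0.0689, and Vcan in the Arg1 contrast between -0.291 and 0.46. Between Treg cells and macrophages Thbs1 was 0.32 and Timp2 -0.14 with a Foxp3 UMI required, and with 1 sample left out they lay between -0.57 and 0.21 and between -0.11 and 0.36. The cause of these changes was not tested.

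The labels do not say whether equal replicate numbers pair the samples. Same-numbered sums of cko and ctr correlated between -0.091 and 0.103 in their deviations over the 4 gates, which with 3 samples a group cannot settle it. A replicate block called 6 members in macrophages, 3 in monocytes (Mmp12 added, log2 1.43, adjusted p = 0.00237), 1 in cDC and 2 in Treg cells. Depth limits the low members: in Treg cells Vcan, Mmp12 and Mmp19 had at most 1 UMI in a sample, so a difference was not detectable there.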

Other observations

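Within single macrophages, Thbs1 and Fn1 counts of thinned cells ran together in each sample (median Pearson r 0.365 over 6 samples, from 0.205 to 0.413), and in monocytes with a median of 0.256 (from 0.195 to 0.328). Spp1 and Fn1 in macrophages had a median r of 0.236 (from 0.169 to 0.309). Mmp12 and Mmp19, the members with the largest rise in cko macrophages, had a median r of 0.041 there (from -0.051 to 0.094). These values are descriptions over cells of the same libraries.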
